A study of Mus musculus with 8 samples.

Results

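The genes described here encode the machinery that brings newly made proteins into the endoplasmic reticulum (ER) and attaches sugar chains to them. They were taken from a list of 43 gene symbols, which named the signal recognition particle (SRP) and its receptor, the Sec61 translocon with its associated proteins, signal peptidase, oligosaccharyltransferase and the enzymes that build the sugar chain on a lipid carrier. Of the 43 genes, 42 were measured among the 18820 genes of the arrays. Alg1, a mannosyltransferase, is annotated here only to 2 probe sets that are shared with other genes, so it has no value below.

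RNA was measured on 8 arrays, each from white adipose tissue of a different male mouse of mixed C57BL/6N and C57BL/6J background, after 5 weeks on the high fat diet Research Diets D12492. In 4 mice, labelled Sel1l-/-, a floxed Sel1l gene had been deleted by a Cre driven from the promoter of adiponectin, an adipocyte gene, so the other cells of the tissue keep Sel1l. The other 4 mice were labelled wildtype (WT), and the sources used here do not give whether they carried floxed alleles or Cre, nor the fat depot or the age of the mice. Sel1l, the adapter of the Hrd1 ubiquitin ligase that removes misfolded proteins from the ER, read 9.56, 9.78, 9.72 and 10.07 log2 units on the Sel1l-/- arrays, against 10.48, 10.57, 10.58 and 10.65 on the WT arrays (log2 fold change -0.79, SE 0.10, adjusted p = 0.0109). All values below are log2 intensities as deposited, so a difference of 1 is a doubling. Differences are Sel1l-/- minus WT with the standard error (SE) of limma, a linear model with moderated variances. An adjusted p under 0.05 over all 18820 genes is the threshold for calling a gene higher or lower.

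SRP binds a signal sequence as it leaves the ribosome and docks with its receptor on the ER membrane. The nascent chain then passes through the Sec61 channel, signal peptidase removes the signal sequence, and oligosaccharyltransferase moves a preassembled sugar chain from the lipid dolichol to asparagine residues of the chain. Adipocytes send large amounts of adipokines and enzymes such as adiponectin and lipoprotein lipase through this route. Several of its genes are known targets of the unfolded protein response, the programme that raises ER folding capacity.

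Genes of targeting, translocation, glycan transfer and glycan assembly were called higher in Sel1l-/- adipose tissue, and no signal peptidase gene was called. Of the 42 measured members, 41 had a positive log2 fold change, against 48.8% of all genes, and the median change was 0.20, against -0.00 for all genes. The 11 members past the threshold were all higher, while 1.04% of all 18820 genes were called higher. They were Srp9, Srpr, Sec61g, Sec61a1, Ssr4, Stt3a, Magt1, Krtcap2, Mpdu1, Alg14 and Alg12. Their log2 fold changes ran from 0.27 to 0.80, or 1.21-fold to 1.74-fold. No member was called lower, while 0.685% of all genes were. For 26 members each Sel1l-/- array read above each WT array, a separation shown by 5.22% of all genes. For no member did each read below, while 955 of all 18820 genes showed that. At an unadjusted p under 0.05 there were 27 members, or 64.3%, against 15% of all genes. The 31 members that were not called had changes of -0.13 to 0.59 and adjusted p-values of 0.0547 to 0.981.

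The mean over the 42 members was 10.32, 10.21, 10.17 and 10.21 on the 4 Sel1l-/- arrays and 9.97, 9.95, 9.88 and 10.01 on the 4 WT arrays, so the groups did not overlap. Sel1l-/- 1 gave the highest of the 8 readings for 26 members, and WT 3 gave the lowest for 21. The direction held within each mouse code that held both groups, but the calls depended on the fit. The mice carry codes with a letter and a number, whose meaning the sources used here do not give. Letter E held only WT mice and letter G only Sel1l-/- mice. A fit with the letter as a block thus compares the groups within letter F alone. Within letter F, with 2 Sel1l-/- and 1 WT mice, the median member change was 0.19 and 39 of 42 were positive. Within the numbers 5 (1 Sel1l-/- and 2 WT mice), 7 (2 and 1) and 9 (1 and 1) it was 0.15, 0.24 and 0.30. Positive members numbered 36, 40 and 38. The median of all genes was 0.013 within letter F and -0.009, -0.005 and 0.015 within these numbers. With the letter as a block none of the members passed (lowest adjusted p = 0.152), with the number as a block none did (lowest 0.0600), and with the replicate number of the titles as a block 12 did, beside 1.90% of all genes. Sel1l, the deleted gene, also lost its call with the letter block and with the number block (log2 fold change -0.98 and -0.80). Leaving out 1 array left 3 to 9 members called, the fewest without Sel1l-/- 2, Sel1l-/- 3, WT 1, WT 2 or WT 3. Stt3a, Magt1 and Sec61g were called in all 8 of these smaller fits.

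**Figure D1:**
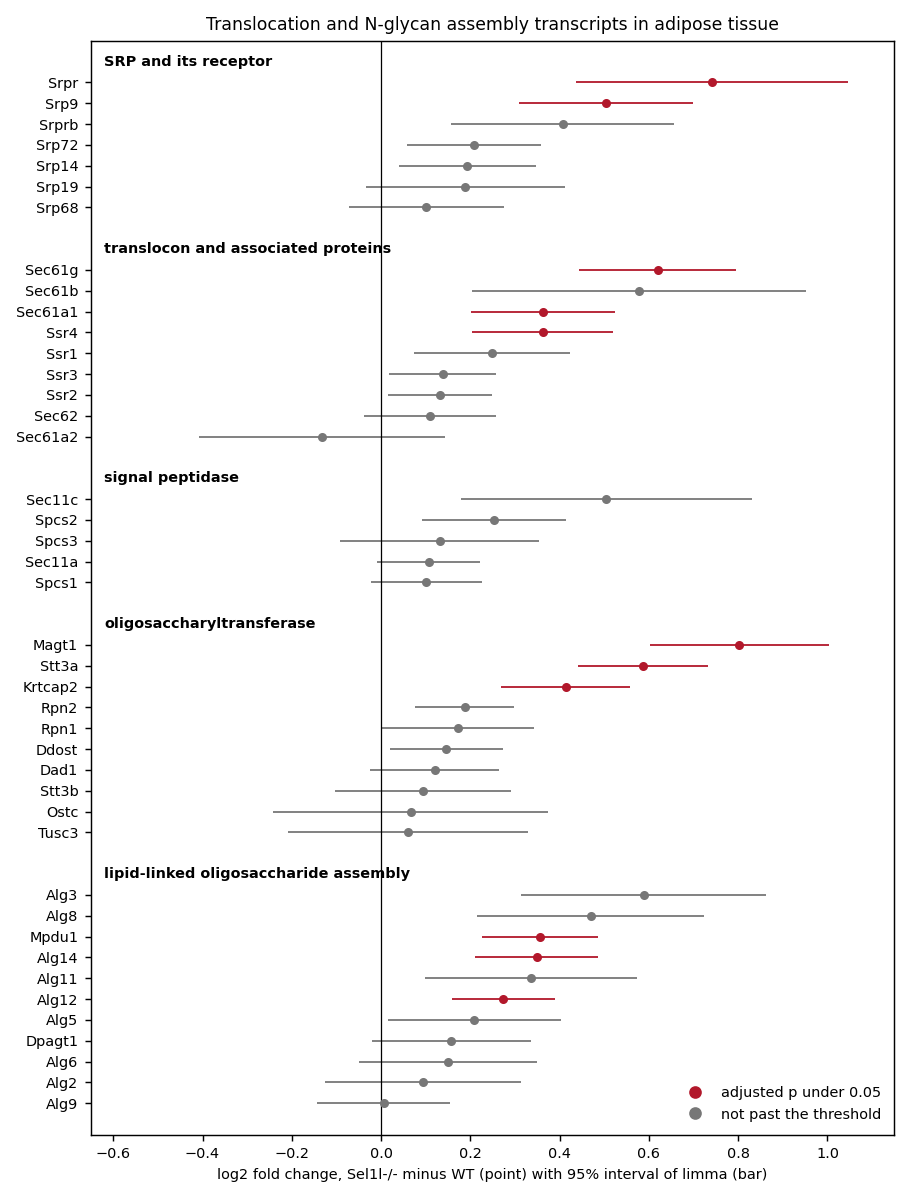
Log2 fold change of each of the 42 measured members, Sel1l-/- minus WT (points, horizontal axis), with the 95% interval of limma (bars), grouped by step of the pathway and sorted within it. Red marks the 11 members with an adjusted p under 0.05, and Sec61a2 is the 1 member left of 0.

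**Figure D2:**
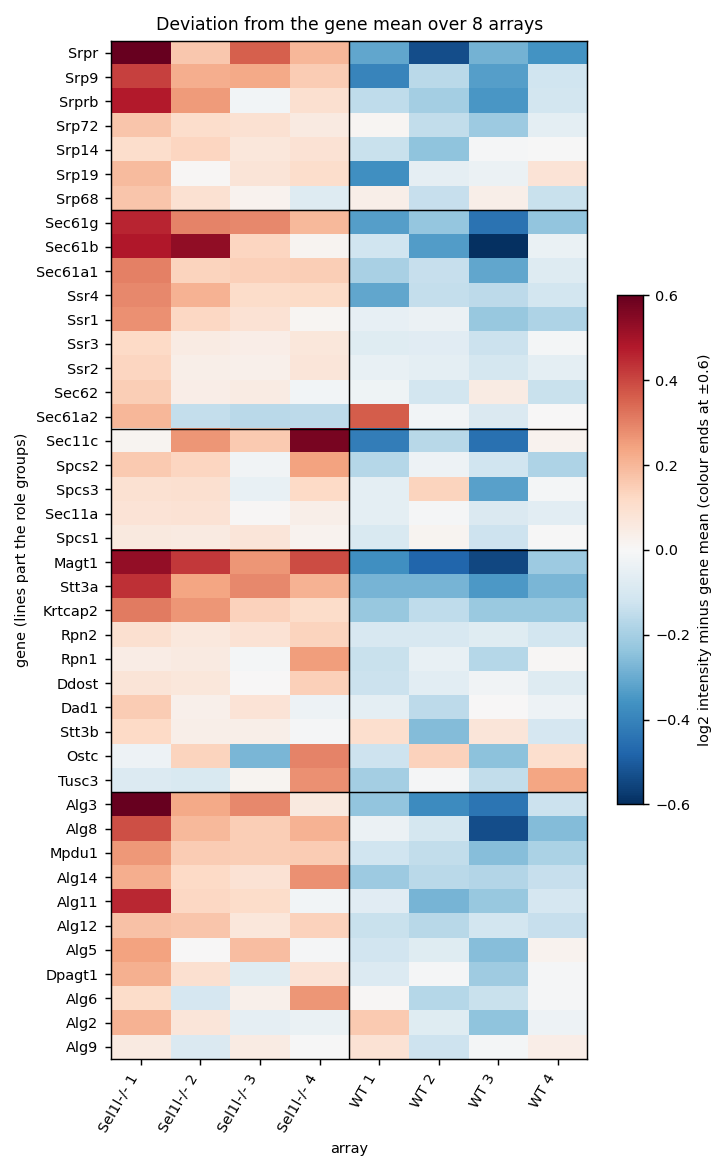
Colour gives the log2 intensity of each member (rows) on each array (columns, Sel1l-/- left of WT) minus that gene's mean over the 8 arrays, with the colour scale ending at 0.6 log2 units on both sides. Red prevails on the left and blue on the right, with the deepest red most often in Sel1l-/- 1.

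Promoter windows of 250 bases before to 50 bases after the transcription start (RefSeq, GRCm38.p6) were at hand for 32 of the 43 genes, among them 10 of the 11 called. They were searched on both strands for 3 elements known from the unfolded protein response: the ER stress response element ERSE (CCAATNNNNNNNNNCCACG), ERSE-II (ATTGGNCCACG) and the core of the unfolded protein response element (TGACGTGG). Among the members, Alg12 alone held an ERSE and Krtcap2 alone an ERSE-II, and both were called higher. ERSE was found in 0.137% of the 27025 genes with a window, ERSE-II in 0.0444% and the UPRE core in 0.714%, which no member held. Of the 20 measured genes with an ERSE, 8 were higher and 1, Zfp57, was lower. Over all 18820 genes the shares called higher and lower were 1.04% and 0.685%. Most of the 8 encode ER folding or degradation factors (Calr, Canx, Derl3, Dnajc3, Hsp90b1, Hspa5 and Pdia6 beside Alg12). The element was first defined on promoters of such chaperone genes, so that count is no independent observation. The sequences below were picked after the values were seen, and show the 2 elements beside the promoters of Stt3a and Magt1, the members with the smallest p. Capitals mark the element in Alg12 and Krtcap2, and in Stt3a and Magt1 the CCAAT and CCACG boxes on either strand. All run 5′ to 3′ on the strand of the gene and end at the base before the start, except that of Krtcap2, which lies just after it.
Alg12, minus strand, chr15:88819319-88819568: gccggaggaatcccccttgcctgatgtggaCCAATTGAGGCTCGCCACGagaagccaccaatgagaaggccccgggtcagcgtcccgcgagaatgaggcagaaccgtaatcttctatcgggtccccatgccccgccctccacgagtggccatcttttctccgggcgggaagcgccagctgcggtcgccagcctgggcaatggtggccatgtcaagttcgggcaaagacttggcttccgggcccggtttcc
Krtcap2, plus strand, chr3:89246481-89246510: gggacacggATTGGACCACGgacggggcgt
Stt3a, minus strand, chr9:36767623-36767872: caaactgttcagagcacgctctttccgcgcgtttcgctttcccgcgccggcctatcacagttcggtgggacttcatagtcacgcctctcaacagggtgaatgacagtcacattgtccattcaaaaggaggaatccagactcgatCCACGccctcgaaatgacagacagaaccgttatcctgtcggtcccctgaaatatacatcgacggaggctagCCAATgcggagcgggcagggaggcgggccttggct
Magt1, minus strand, chrX:106011803-106012052: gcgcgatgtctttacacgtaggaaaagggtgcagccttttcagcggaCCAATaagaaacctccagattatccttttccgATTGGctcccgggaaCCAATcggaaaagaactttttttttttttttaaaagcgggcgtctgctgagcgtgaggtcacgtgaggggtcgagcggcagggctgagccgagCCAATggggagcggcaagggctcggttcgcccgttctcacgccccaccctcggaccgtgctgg
The Alg12 element lies 220 to 202 bases before its start. It is shared with Creld2, which encodes an ER protein induced by ER stress and starts on the opposite strand, for which it lies 126 to 108 bases before the start. Creld2 read 9.63, 9.85, 9.55 and 10.68 on the Sel1l-/- arrays and 8.99, 9.25, 9.09 and 9.22 on the WT arrays, without overlap but not past the threshold (log2 fold change 0.79, SE 0.23, adjusted p = 0.143). The Krtcap2 element lies 17 to 27 bases after the start. The 250 bases of Stt3a hold 1 CCAAT and 1 CCACG, and those of Magt1 hold 4 CCAAT and no CCACG. Single boxes are common, with CCAAT in 41.1% and CCACG in 35.5% of all genes' windows, counted over the full 300 bases.

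Both parts of the targeting step were represented among the called genes. All 7 measured genes of SRP and its receptor had positive changes (median 0.21), 2 were called higher and 5 showed Sel1l-/- arrays wholly above WT arrays. Srpr, the GTPase subunit of the receptor that meets SRP at the membrane, read 11.50, 10.89, 11.09 and 10.93 on the Sel1l-/- arrays and 10.42, 10.20, 10.45 and 10.37 on the WT arrays. It was thus higher on each Sel1l-/- array, most of all on Sel1l-/- 1 (log2 fold change 0.74, SE 0.13, adjusted p = 0.0341). Srprb, the subunit that anchors the receptor in the membrane, read 10.70, 10.48, 10.21 and 10.32 on the Sel1l-/- arrays and 10.07, 10.02, 9.88 and 10.12 on the WT arrays. The groups did not overlap, but the gene did not pass (0.41, SE 0.11, adjusted p = 0.123).

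Srp9 forms with Srp14 the end of SRP that slows translation while the ribosome travels to the membrane. Srp9 read 10.12, 9.93, 9.94 and 9.86 on the Sel1l-/- arrays and 9.32, 9.55, 9.38 and 9.60 on the WT arrays (log2 fold change 0.50, SE 0.09, adjusted p = 0.0291), with a clear gap between the groups. A dimmer probe set of Srp9 gave 0.46. Its partner Srp14 read 8.77 to 8.84 on the Sel1l-/- arrays and 8.46 to 8.70 on the WT arrays (0.19, adjusted p = 0.222). Srp72, a large protein of the signal-binding end, read 10.98, 10.93, 10.91 and 10.87 on the Sel1l-/- arrays and 10.83, 10.67, 10.60 and 10.76 on the WT arrays (0.21, SE 0.07, adjusted p = 0.180), a small but complete separation. Srp19 and Srp68, also of that end, had changes of 0.19 and 0.10 with overlapping groups. Srp9 and Srpr were each called in 2 of the 8 fits without 1 array, with adjusted p up to 0.0916 and 0.105 without Sel1l-/- 3, and missed the threshold with the arrays centred on their medians (0.0504 and 0.0502).

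Among the translocon genes, some subunits of the channel itself passed the threshold and others did not. Of 9 measured genes 3 were called higher, 8 had positive changes (median 0.25), and 7 showed no overlap between the groups. Sec61g, the small gamma subunit, read 10.82, 10.66, 10.65 and 10.55 on the Sel1l-/- arrays and 10.03, 10.13, 9.92 and 10.12 on the WT arrays (log2 fold change 0.62, SE 0.08, adjusted p = 0.00972). The gap between the groups was wider than the range within either. Its 4 probe sets gave 0.62 to 0.67, all without overlap, and the sources used here do not give whether they also bind copies of the gene elsewhere. Sec61a1, the pore-forming alpha subunit, read 12.17, 12.00, 12.01 and 12.02 on the Sel1l-/- arrays and 11.67, 11.73, 11.55 and 11.79 on the WT arrays (0.36, SE 0.07, adjusted p = 0.0452). Sec61b, the beta subunit, read 7.99, 8.04, 7.64 and 7.53 on the Sel1l-/- arrays and 7.39, 7.17, 6.85 and 7.47 on the WT arrays. The groups came close to each other, and it did not pass (0.58, SE 0.16, adjusted p = 0.139), while its 3 probe sets gave 0.52 to 0.58.

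Sec61a2, the second form of the alpha subunit, was the 1 member with a negative value. It read 8.98, 8.64, 8.62 and 8.62 on the Sel1l-/- arrays and 9.15, 8.77, 8.70 and 8.79 on the WT arrays, with overlap (log2 fold change -0.13, SE 0.12, adjusted p = 0.678), and the value turned to 0.024 with the letter block. The translocon-associated protein complex, TRAP, sits beside the channel and helps some substrates to enter. Ssr4, its delta subunit, read 11.00, 10.92, 10.82 and 10.83 on the Sel1l-/- arrays and 10.40, 10.57, 10.56 and 10.60 on the WT arrays (0.36, SE 0.07, adjusted p = 0.0433). The other 3 subunits also read higher on each Sel1l-/- array than on any WT array, by 0.25 for Ssr1, 0.14 for Ssr3 and 0.13 for Ssr2, but did not pass (adjusted p = 0.171 to 0.272). Sec62, which serves proteins that enter after their synthesis, had a change of 0.11 with overlapping groups. Ssr4 lost its call in each of the 8 fits without 1 array (adjusted p up to 0.139, without Sel1l-/- 2) and with the replicate number as a block (0.0645), and Sec61a1 lost its own in 7 of the 8 (up to 0.129, without WT 1).

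None of the 5 signal peptidase genes passed the threshold, although all had positive values (median 0.13, range 0.10 to 0.50) and 3 showed no overlap. Sec11c, 1 of the alternative catalytic subunits, had the largest change of the complex. It read 8.81, 9.06, 8.95 and 9.36 on the Sel1l-/- arrays and 8.38, 8.63, 8.34 and 8.81 on the WT arrays, with the lowest Sel1l-/- array just below the highest WT array (log2 fold change 0.50, SE 0.14, adjusted p = 0.137). With the replicate number of the titles as a block its adjusted p was 0.0190. With the letter block its change was 0.12 and its adjusted p 0.899. Sec11a, the other catalytic subunit, read 9.39, 9.39, 9.31 and 9.34 on the Sel1l-/- arrays and 9.25, 9.30, 9.22 and 9.24 on the WT arrays (0.11, SE 0.05, adjusted p = 0.376). Of the accessory subunits, Spcs2 read 10.68, 10.66, 10.51 and 10.77 on the Sel1l-/- arrays and 10.36, 10.50, 10.41 and 10.35 on the WT arrays (0.25, SE 0.07, adjusted p = 0.135). Sec11a and Spcs2 separated the groups completely, as did Spcs1, by a narrow margin. Spcs1 read 10.98 to 11.03 on the Sel1l-/- arrays and 10.83 to 10.97 on the WT arrays (0.10, adjusted p = 0.446), and Spcs3 had a change of 0.13 with overlap.

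Oligosaccharyltransferase held the members with the smallest p of the whole pathway. The complex exists in a form built on Stt3a, which works on chains still passing through the translocon and carries Ostc and Krtcap2, and a form built on Stt3b, which works on sites that were skipped and carries Magt1 or Tusc3. Of the 10 measured genes 3 were called higher (median change 0.16), all 10 had positive values and 5 separated the groups. Stt3a, a catalytic subunit, read 12.25, 12.05, 12.11 and 12.03 on the Sel1l-/- arrays and 11.54, 11.54, 11.47 and 11.54 on the WT arrays (log2 fold change 0.59, SE 0.06, adjusted p = 0.00712). Magt1, a thiol oxidoreductase subunit, read 10.93, 10.83, 10.67 and 10.79 on the Sel1l-/- arrays and 10.04, 9.93, 9.86 and 10.18 on the WT arrays (0.80, SE 0.09, adjusted p = 0.00712). In both genes the lowest Sel1l-/- array lay far above the highest WT array, and Magt1 had the largest change of all members, 1.74-fold. Krtcap2 read 11.75, 11.70, 11.58 and 11.55 on the Sel1l-/- arrays and 11.21, 11.29, 11.21 and 11.22 on the WT arrays (0.41, SE 0.06, adjusted p = 0.0208).

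None of the other 7 subunits passed the threshold. Rpn2, a structural subunit of both forms, read 10.84, 10.81, 10.83 and 10.88 on the Sel1l-/- arrays and 10.65, 10.65, 10.67 and 10.64 on the WT arrays, a small separation with little spread (log2 fold change 0.19, SE 0.05, adjusted p = 0.109). Ddost, also of both forms, separated the groups with a change of 0.15, and Rpn1 and Dad1 had 0.17 and 0.12 with overlap. Stt3b, the alternative catalytic subunit, read 11.62, 11.53, 11.53 and 11.49 on the Sel1l-/- arrays and 11.60, 11.23, 11.57 and 11.39 on the WT arrays (0.09, SE 0.09, adjusted p = 0.681), and its dimmer probe set gave -0.03. The groups overlapped, as they did for Tusc3, which read 8.30, 8.29, 8.40 and 8.65 on the Sel1l-/- arrays and 8.17, 8.37, 8.23 and 8.62 on the WT arrays (0.06, SE 0.12, adjusted p = 0.863). Ostc, a companion of Stt3a, had a change of 0.07 with overlapping groups. With the letter block Tusc3 turned negative (-0.32), as did Ostc (-0.047), and leaving out 1 array took them down to -0.022 each. Ostc was also negative with array weights (-0.013). Krtcap2 kept its call in 2 of the 8 fits without 1 array, with an adjusted p of up to 0.0779 without Sel1l-/- 2.

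**Figure D3:**
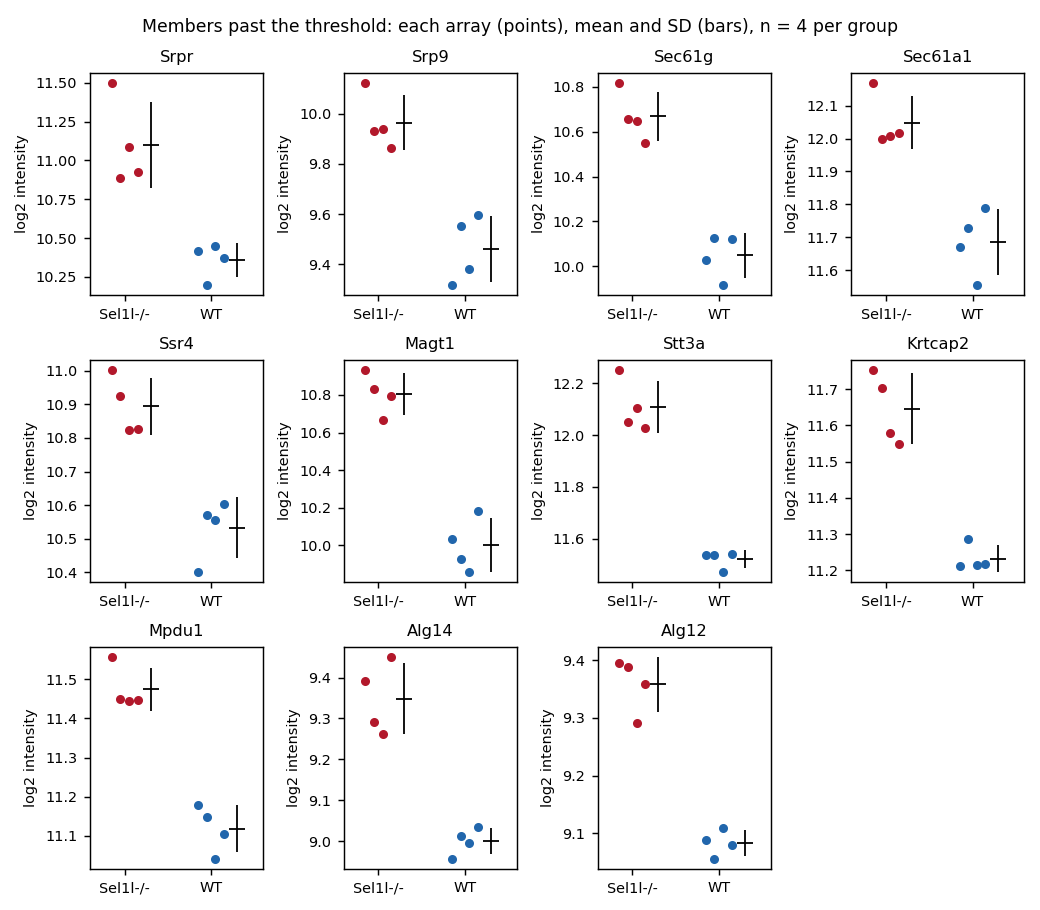
Log2 intensity (vertical axis, a separate range for each gene) on each Sel1l-/- array (red, left) and WT array (blue, right) for the 11 members past the threshold, with mean and SD beside the points (n = 4 each). In each panel the lowest red point lies above the highest blue point.

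The sugar chain is built on dolichol in order, starting on the cytosolic face of the ER and ending in the lumen. Of the 11 measured assembly genes 3 were called higher, all 11 had positive values (median change 0.27) and 6 separated the groups. On the cytosolic face, Alg14, which anchors the enzyme for an early sugar to the membrane, read 9.391, 9.292, 9.262 and 9.450 on the Sel1l-/- arrays and 8.957, 9.012, 8.996 and 9.034 on the WT arrays (log2 fold change 0.35, SE 0.06, adjusted p = 0.0299). Alg11, a mannosyltransferase of the same face, also separated the groups, at 9.19 to 9.66 on the Sel1l-/- arrays and 8.93 to 9.14 on the WT arrays (0.34, adjusted p = 0.175). Dpagt1, which starts the chain, and Alg2 had changes of 0.16 and 0.09 with overlap.

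On the lumenal face, Alg3 and Alg12 add mannose and Alg8 adds glucose. Alg12 read 9.40, 9.39, 9.29 and 9.36 on the Sel1l-/- arrays and 9.09, 9.06, 9.11 and 9.08 on the WT arrays, the smallest change among the called members but with little spread (log2 fold change 0.27, SE 0.05, adjusted p = 0.0393). Alg3 read 11.70, 11.33, 11.39 and 11.16 on the Sel1l-/- arrays and 10.87, 10.72, 10.66 and 10.97 on the WT arrays (0.59, SE 0.12). It separated the groups and stood just outside the threshold, with an adjusted p of 0.0547. With all arrays in the fit, that p ran from 0.0187 with array weights to 0.399 with the letter block. Alg8 read 10.19 to 10.43 on the Sel1l-/- arrays and 9.51 to 10.01 on the WT arrays (0.47, adjusted p = 0.0872, 0.0334 with the replicate block and 0.460 with the letter block). The glucosyltransferase Alg6 and the mannosyltransferase Alg9 had changes of 0.15 and 0.01 with overlap. Mpdu1, which the lumenal enzymes need in order to use sugars bound to dolichol phosphate, read 11.56, 11.45, 11.44 and 11.45 on the Sel1l-/- arrays and 11.18, 11.15, 11.04 and 11.11 on the WT arrays (0.36, SE 0.06, adjusted p = 0.0235), far apart for their spread. Alg5, which makes such a glucose donor, had 0.21 with a slight overlap. Alg12 lost its call in each fit without 1 array (adjusted p up to 0.132, without Sel1l-/- 2) and with the replicate block (0.0598), and Alg14 and Mpdu1 kept theirs in 2 of the 8 (up to 0.0946 without WT 1 and 0.0779 without Sel1l-/- 2).

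In 3 of 4 pairs of related subunits, the members changed unequally between the groups when the mice were not paired. For each array the log2 value of the second gene was subtracted from that of the first, and the differences were compared by an exact two-sided permutation test, whose smallest possible p with 4 against 4 arrays is 0.0286. The level of such a difference depends on the probes, so only its change between groups was read. Magt1 minus Tusc3 was 2.63, 2.54, 2.27 and 2.14 on the Sel1l-/- arrays and 1.86, 1.56, 1.63 and 1.57 on the WT arrays (change 0.74, SE 0.14, exact p = 0.0286, 0.0381 after adjustment over the 4 pairs). Stt3a minus Stt3b was 0.64, 0.52, 0.57 and 0.54 on the Sel1l-/- arrays and -0.06, 0.30, -0.09 and 0.15 on the WT arrays (change 0.49, SE 0.10, exact p = 0.0286, adjusted 0.0381). Sec61a1 minus Sec61a2 was 3.185, 3.360, 3.385 and 3.392 on the Sel1l-/- arrays and 2.525, 2.963, 2.856 and 3.001 on the WT arrays (change 0.49, SE 0.12, exact p = 0.0286, adjusted 0.0381). In each of these pairs all 4 Sel1l-/- differences exceeded all 4 WT differences. Sec11a minus Sec11c moved the other way, at 0.58, 0.34, 0.37 and -0.02 on the Sel1l-/- arrays and 0.87, 0.67, 0.88 and 0.43 on the WT arrays, with overlap (change -0.40, SE 0.16, exact p = 0.0571, adjusted 0.0571), which does not show that those subunits changed alike. Without any 1 Sel1l-/- array the adjusted exact p of the 3 called pairs lay between 0.0571 and 0.0762. Without any 1 WT array it stayed at 0.0381 for each of them. With same-numbered mice paired the exact p was 0.125 for each of the 3, the smallest that 4 pairs allow, so none of them passed. The letter and number of the mouse codes, which removed the calls of all single members, were not tried as blocks for these differences.

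**Figure D4:**
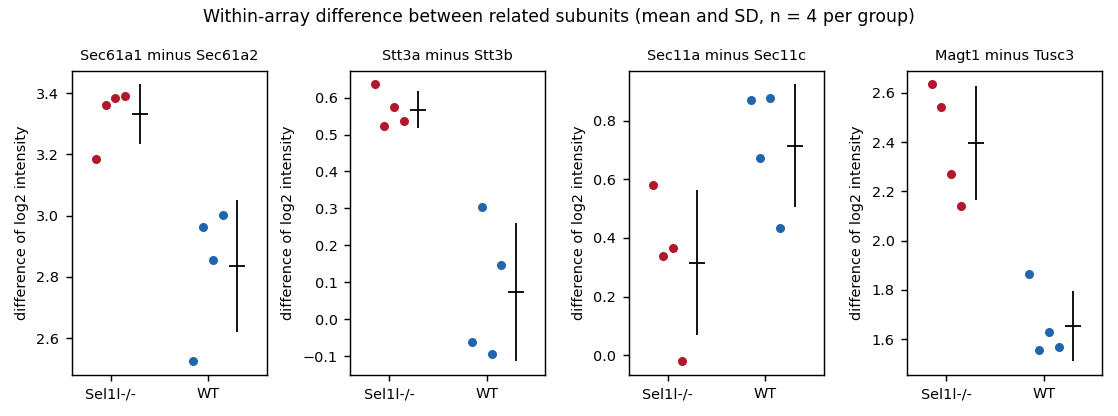
Within-array difference of log2 intensity between 2 related subunits (vertical axis, a separate range for each pair) on each Sel1l-/- array (red, left) and WT array (blue, right), with mean and SD (n = 4 each). The groups do not overlap for Sec61a1 minus Sec61a2, Stt3a minus Stt3b and Magt1 minus Tusc3, and overlap for Sec11a minus Sec11c, where Sel1l-/- lies lower.

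Neighbouring steps were counted from lists of their own. Of all 18820 genes, 1.04% were called higher, 48.8% were positive and 15% had an unadjusted limma p under 0.05. Of 17 measured other targeting and insertion factors 2 were called higher and 9 were positive (median change 0.05). These were Ccdc47, a part of a translocon for multi-spanning membrane proteins, at 9.72, 9.50, 9.60 and 9.43 on the Sel1l-/- arrays against 8.89, 8.89, 8.71 and 8.81 on the WT arrays (log2 fold change 0.74, SE 0.08, adjusted p = 0.00618), and Get4, of the route for tail-anchored proteins (0.40, SE 0.07, adjusted p = 0.0369). Ccdc47 was called in all 8 fits without 1 array, and Get4 in 1. With the letter block or the number block, Ccdc47 (adjusted p = 0.161 and 0.0571), Get4 (0.293 and 0.143) and Gmppa (0.361 and 0.135) each lost the call. None of 12 other genes of N-glycan assembly and dolichol supply passed (median 0.04), and 3 of them had an unadjusted p under 0.05. Nus1, a subunit of the enzyme that makes the dolichol backbone, had the smallest p of that list (0.40, adjusted p = 0.0913, 0.0293 with the replicate block, and a change of 0.16 with adjusted p = 0.787 with the letter block). Of 10 genes of sugar nucleotide supply 1 was called higher (median 0.15), Gmppa, which regulates GDP-mannose synthesis (0.43, SE 0.07, adjusted p = 0.0270, and called in 2 of the 8 smaller fits). For scale, 8 of 9 measured lumenal chaperones were higher (median 0.82), among them Pdia6 at 1.08, Hyou1 at 0.87, Hsp90b1 at 0.84 and Hspa5 at 0.82, so the median change of the 42 members, 0.20, was the smaller. All 4 of these chaperones lost their calls with the letter block, and Hspa5 and Hyou1 also with the number block.

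Markers of the cell types that adipose tissue can hold were read beside these results, and 1 gene of all these lists, Pecam1, was called. Mean log2 levels of 9 adipocyte markers were 11.8 to 12.2 on the Sel1l-/- arrays and 12.3 to 12.4 on the WT arrays, all 9 lower in value but none past the threshold. Slc2a4 (-1.02) and Adipoq (-0.56) had the largest differences of the 9, and the list median was -0.11. Slc2a4 read 9.74, 9.58, 9.65 and 8.21 on the Sel1l-/- arrays and 10.10 to 10.56 on the WT arrays. Sel1l-/- 4 was thus lowest for Slc2a4, and it also had the lowest adipocyte mean (11.81, the other Sel1l-/- arrays 12.16 to 12.24). The 6 endothelial markers averaged 9.74 to 10.1 on the Sel1l-/- arrays and 10.2 to 10.4 on the WT arrays. All 6 were lower in value (median -0.37), and 1 of 6 was called lower (Pecam1, adjusted p = 0.0290). For 4 of them each Sel1l-/- array read below each WT array, as for 955 of all 18820 genes. All 6 had an unadjusted limma p under 0.05, against 15% of all genes. The 7 macrophage markers averaged 10.4 to 11.3 on the Sel1l-/- arrays and 10.2 to 10.9 on the WT arrays. All 7 were higher in value (median 0.36), and none was called. Markers of B cells and of plasma cells, the latter secretory and rich in this machinery, numbered 7. They averaged 5.65 to 6.32 on the Sel1l-/- arrays and 5.87 to 7.28 on the WT arrays. Of these, 6 were lower in value and 1 higher (median -0.56), and none was called. The 1 higher was Tnfrsf17 (0.16, SE 0.16), and Mzb1 (-0.32, SE 0.36) and Jchain (-0.64, SE 0.98) had differences below their SE. The 5 mesothelial markers averaged 9.10 to 9.77 on the Sel1l-/- arrays and 9.41 to 10.3 on the WT arrays, with all 5 lower in value, none called and a median change of -0.36. The 4 measured pancreas acinar markers, of another secretory tissue, averaged 4.87 to 5.10 on the Sel1l-/- arrays and 4.67 to 5.04 on the WT arrays. Cela1 was the brightest of them, with a mean of 7.25 in Sel1l-/- and 6.67 in WT (change 0.57, adjusted p = 0.366). Group means of Cpa1 were 4.80 in Sel1l-/- and 4.93 in WT, those of Ctrb1 4.32 in Sel1l-/- and 4.24 in WT, and those of Cel 3.68 in Sel1l-/- and 3.75 in WT. None of the 4 was called, and the lower quartiles of the arrays were 4.33 to 4.37. The part of these shifts in the results was not tested. In bulk tissue, a change in the number of cells of a type and a change in RNA per cell cannot be told apart. Array medians over all probe sets also differed slightly, at 6.10 to 6.14 for Sel1l-/- and 6.05 to 6.08 for WT. After centring on them 6 members stayed past the threshold (Sec61g, Stt3a, Magt1, Krtcap2, Mpdu1 and Alg14). Of the members, 40 of 42 remained positive, Alg9 turning, while the positive share of all genes fell from 48.8% to 35.8%.

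**Figure D5:**
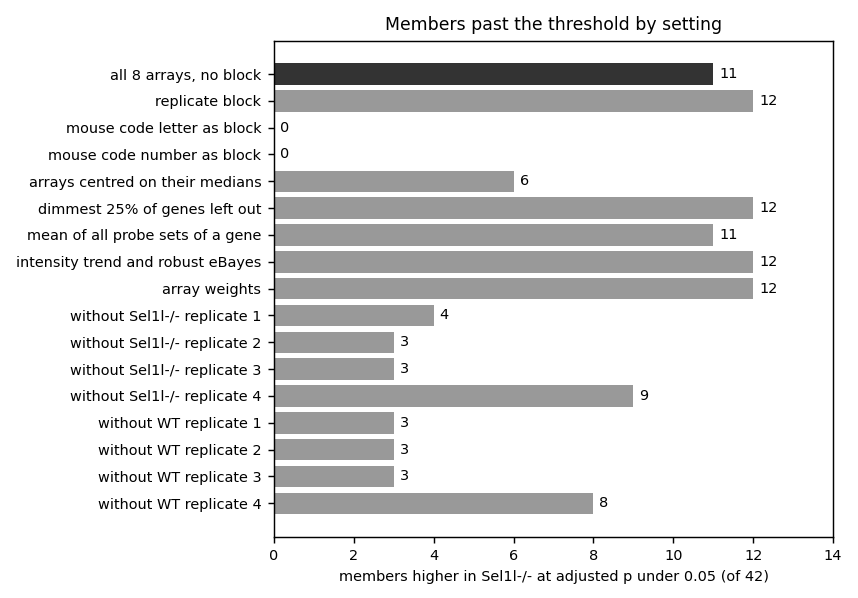
Number of the 42 members called higher in Sel1l-/- at an adjusted p under 0.05 (horizontal axis, from 0) under each way of fitting the data (rows). The comparison used in the text (top bar) gave 11, the mouse code letter or number as a block gave 0, and leaving out 1 array gave 3 to 9.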

How the data were processed

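RNA from 8 mice was measured on 1-colour arrays. The deposited log2 values come, per the submitters' processing notes, from RMA, which corrects background, normalizes by quantiles and summarizes probes. That the scale is log2 was inferred from the values, and the sources used here give no version or filter. RMA makes array distributions alike, so a shift shared by most transcripts would be hidden, and small changes of dim genes are compressed.

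Of 35556 probe sets, 21218 carried 1 gene symbol in the platform annotation, 1881 several, and 12457 are not listed in the table used here. Each gene was read from its probe set of highest mean over the 8 arrays, which left 18820 genes, 17434 of them with 1 probe set. Groups were compared with limma 3.58.1 (R 4.3.3, lmFit and eBayes, prior degrees of freedom 2.60) in two-sided tests, and p-values were adjusted by Benjamini-Hochberg over all genes, with 0.05 as the threshold. Subunit pairs were compared by exact permutation. Figures used Python 3.11.15 and matplotlib 3.10.9. Precision is limited by having 4 arrays per group. The arrays correlated with each other at 0.982 to 0.994.

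The members and lists were chosen with earlier results of these data known. Genes named with values are each member past the threshold, the 4 of smallest p in each role group, both genes of each pair, and up to 4 called genes, or else the 1 of smallest p, in each neighbouring list. Other members are given by range or change, and Creld2 was added after its values were seen because it shares a promoter with Alg12. Replicates are different mice. Their numbers in the titles were tried as pairs because mice of the same number deviated together from the means of their groups. The correlations over all genes were 0.518, 0.107, 0.363 and 0.524, which no label explains. Mice of different numbers gave -0.489 to 0.328. Among these, WT 3 with Sel1l-/- 1 (0.328) and WT 2 with Sel1l-/- 4 (0.327) exceeded the 0.107 of number 2. The correlations thus do not show that the numbers pair the mice. Other alternatives were the letter and number of the mouse codes as blocks, arrays centred on their medians, the dimmest 25% of genes left out, the mean of a gene's probe sets, an intensity trend with robust eBayes, array weights, and each array left out. The subunit pairs were tried only with same-numbered mice paired, the mean of a gene's probe sets, and each array left out.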

Additional observations from a re-analysis of the deposited data

Results flagged for a closer look

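In the 64 groups of 4 arrays formed by the 32 named genes, 6 held an array far from the other 3 for the group's range (a gap above Dixon's 95% critical value), where chance gives about 1 in 20 groups. Sel1l-/- 1 stood above the other Sel1l-/- arrays for Sec61a1 (12.17, the others 12.00 to 12.02), Mpdu1 (11.56, the others 11.44 to 11.45) and Sec61a2 (8.98, the others 8.62 to 8.64). WT 3 stood below the other WT arrays for Stt3a (11.47, the others at 11.54). WT 2 stood above them for Krtcap2 (11.29, the others 11.21 to 11.22), and WT 4 for Hyou1 (9.60, the others 9.47 to 9.49).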

How the results depend on the processing

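The count of members called higher was 12 with the replicate block, of which 9 were among the 11 (Ssr4 and Alg12 left, and Sec11c, Alg3 and Alg8 entered), beside 1.90% of all genes. It was 0 with the mouse code letter and 0 with the number as a block, 6 with the arrays centred, 11 to 12 under the other 4 settings with all arrays, and 3 to 9 without 1 array. No member was called lower under any of these. Genes called higher and lower over all 18820 numbered 195 and 129, against 358 and 367 with the replicate block, 7 and 13 with the letter, 8 and 3 with the number, 119 and 154 centred, 347 and 219 with array weights, and 66 to 244 and 31 to 140 without 1 array. The median member change stayed between 0.16 (centred) and 0.23 (without WT 4). Among the named genes the sign turned for Sec61a2 with the letter block (0.024) and for Tusc3 with it (-0.32) and without Sel1l-/- 4 (-0.022, the range without 1 array reaching 0.15). Of the members given by their change alone, Ostc turned with the letter block (-0.047), array weights (-0.013) and 1 array left out (down to -0.022), and Alg9 with the letter block (-0.057), centring (-0.036) and 1 array left out (down to -0.035). Without 1 array the pair differences ran from 0.39 to 0.55 (Sec61a1 minus Sec61a2), 0.44 to 0.57 (Stt3a minus Stt3b), 0.66 to 0.83 (Magt1 minus Tusc3) and -0.49 to -0.29 (Sec11a minus Sec11c). With same-numbered mice paired they remained 0.49, 0.49, 0.74 and -0.40, where the exact p cannot go below 0.125. Among single named genes, settings that kept all arrays left 203 results on their side of the threshold, moved 45 out and 6 in, and turned 2. The blocks and the smaller fits leave fewer residual degrees of freedom, and the sources used here do not give what the codes stand for. Letter E held only WT and letter G only Sel1l-/- mice, so the letter block compares the groups within letter F alone. Centring shifted the median of all genes by less than 0.1, to -0.05.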
